A study of Mus musculus with 12 samples.

Results

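The AP-1 family genes are the genes of the Fos, Jun and ATF proteins that pair into the transcription factor AP-1. The family was taken as 8 genes, Fos, Fosb, Fosl1, Fosl2, Jun, Junb, Jund and Atf3. A member was measured where the array's annotation gave a probe set that symbol and no other, which held for 7 genes on 8 of 33793 probe sets, with 2 probe sets for Jund. Fosl1 shares its probe set with another gene and is not analysed here. These 7 genes were among 22180 genes tested.

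RNA was measured on 12 single-colour arrays of CD8+ T cells that had been enriched from spleens of C57BL/6 mice by removing other cell types. All cells were kept for 6 h. The 4 groups of 3 arrays received phosphate-buffered saline (PBS) as mock treatment, PBS with IFN-4a, an antibody against CD3, or anti-CD3 with IFN-4a. The study asked how type I interferon, here IFN-4a, alters gene expression in these cells, and anti-CD3 engages the T cell receptor complex. Not given in the sources used here were doses, the age and number of the mice, and whether replicates came from separate animals. The p-values therefore reflect the scatter of these arrays alone, and that scatter may be technical. PBS cells are called resting and anti-CD3 cells stimulated below.

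AP-1 is a dimer of proteins with a basic region, which contacts DNA, and a leucine zipper, which joins the partners. Fos proteins need a Jun partner, whereas Jun proteins can also pair with each other and with ATF proteins. In T cells AP-1 is produced and activated after receptor engagement through the Ras and MAP kinase route, and it binds DNA together with NFAT at cytokine genes such as Il2. Fos is a classical immediate early gene whose RNA rises and decays quickly, while Jun can activate its own promoter.

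Each array value was a logarithm, read here as log2, and each probe set had been centred on its median over the 12 arrays. A value of 0 is therefore that median, and only differences can be compared between genes. The log base is not stated, and with a natural log every fold below would be larger. The array medians lay between -0.0157 and 0.0165. The decimal steps of the values still show how high a probe set stood before centring. The 6 measured T cell markers were the CD8 genes Cd8a and Cd8b1 and the general T cell genes Cd3d, Cd3e, Cd3g and Cd2. By these decimal steps, all 12 arrays were at 8 or above on the log scale for 6 of 6. The same held for none of 5 B cell, 4 CD4 T cell, 8 monocyte, macrophage and dendritic cell or 5 granulocyte markers and for 1 of 6 NK cell markers, Nkg7, a granule gene that CD8+ cells share. Among the AP-1 genes it held for Jun, Fosl2, Junb and both Jund probe sets. Fos and Atf3 were at 8 or above on their 6 highest arrays, which were the 6 arrays of stimulated cells, but not on all 12. Fosb was not shown to be at 8 or above on its 6 highest arrays. A probe set below 8 meets the test on 6 arrays by chance about 1 time in 32. The direction of the scale was taken from the interferon-stimulated gene Ifit1, with log2 differences of 5.16 with IFN-4a in resting and 3.88 in stimulated cells.

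The sequences just before the start sites of 4 members are shown because these 4 genes had the widest spans between groups, and because Jun and Fosl2 differed with IFN-4a while Fos and Atf3 did not pass that test. They are the 250 bases before the RefSeq start in build GRCm38.p6, given 5′ to 3′ on the gene's strand, at chr4:95052223-95052472 (minus strand) for Jun, chr5:32136222-32136471 (plus strand) for Fosl2, chr12:85473640-85473889 (plus strand) for Fos and chr1:191183334-191183583 (minus strand) for Atf3. Capitals mark the motif matches.
Jun: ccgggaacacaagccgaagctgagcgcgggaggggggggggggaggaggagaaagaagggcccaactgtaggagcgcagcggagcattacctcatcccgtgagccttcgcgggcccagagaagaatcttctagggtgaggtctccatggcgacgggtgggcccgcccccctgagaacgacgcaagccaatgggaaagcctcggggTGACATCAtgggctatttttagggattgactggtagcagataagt
Fosl2: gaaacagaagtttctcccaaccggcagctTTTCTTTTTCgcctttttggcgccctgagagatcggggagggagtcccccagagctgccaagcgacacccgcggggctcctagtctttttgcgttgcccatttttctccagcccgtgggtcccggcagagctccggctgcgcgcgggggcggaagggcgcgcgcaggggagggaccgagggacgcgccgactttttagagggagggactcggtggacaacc
Fos: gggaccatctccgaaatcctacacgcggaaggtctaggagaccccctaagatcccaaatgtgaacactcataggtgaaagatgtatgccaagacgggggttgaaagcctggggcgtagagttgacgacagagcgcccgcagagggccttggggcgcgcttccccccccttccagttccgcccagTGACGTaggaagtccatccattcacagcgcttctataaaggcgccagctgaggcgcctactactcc
Atf3: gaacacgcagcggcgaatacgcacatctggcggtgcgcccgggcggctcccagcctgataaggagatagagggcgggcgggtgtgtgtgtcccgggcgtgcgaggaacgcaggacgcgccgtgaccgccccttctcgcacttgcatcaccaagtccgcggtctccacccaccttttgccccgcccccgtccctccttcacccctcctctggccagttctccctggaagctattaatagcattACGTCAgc

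6 motifs were searched on both strands in these windows and in all 32851 windows of the same length. TGACTCA, the classical AP-1 site, was in none of the 7 measured members' windows and in 4.46% of all windows. TGACATCA, a variant of that site, matched in the Jun window from base -45 and was in 2.93% of all windows. TGACGT, the core of the cyclic AMP response element, matched in the Fos window from base -66 and, on the other strand, in the Atf3 window from base -8, with matches in 6.47% of all windows. The full element TGACGTCA, which contains TGACGT, was in none of the members' windows and in 1.55% of all. The core of the interferon-stimulated response element, written as GAAA, any 2 bases and GAAA again, matched on the other strand of the Fosl2 window from base -221 and in 2.98% of all windows. TTCNNNGAA, the form that STAT dimers bind, was in none of the members' windows and in 7.02% of all. The windows of Fosb, Junb and Jund held no match, and the matches are descriptions of letters in these short windows.

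Jun rose with IFN-4a in resting cells, and its difference in stimulated cells did not pass the test. Jun encodes c-Jun, the main activating partner in AP-1. On the 3 PBS arrays its centred log2 values were -1.12, -1.06 and -1.38. They were -0.09, -0.09 and -0.38 on the PBS with IFN-4a arrays, 0.09, 0.17 and 0.30 on the anti-CD3 arrays, and 0.10, 0.13 and 0.19 on the arrays with both. The PBS arrays stood below all others, the PBS with IFN-4a arrays came next, and the 2 stimulated groups overlapped. In a bulk sample, fewer cells of a kind and less RNA per cell cannot be told apart. The rise with IFN-4a in resting cells was 2.0-fold (log2 1.0, SE 0.10, n = 3 and 3, limma adjusted p = 8.63e-06), and it lay between 0.68 and 1.10 with adjusted p up to 0.000532 over 21 alternatives. In stimulated cells the difference was -0.04 (95% interval -0.25 to 0.16, adjusted p = 0.901). The difference between these responses was itself past the threshold, at -1.04 (SE 0.13, limma adjusted p = 0.00112), and ranged from -1.14 to -0.71 over 20 alternatives, all called. Most markers of other cell types moved little in resting cells given IFN-4a. None of the B cell, CD4 T cell, myeloid, granulocyte or erythroid and platelet markers was called, with changes from -0.23 to 0.23. Of 6 NK cell markers 1, the granzyme gene Gzma, rose by 2.28. Of the 6 CD8 and general T cell markers 1, Cd3d, fell by 0.24. The part of these markers in the result was not tested.

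**Figure D1:**
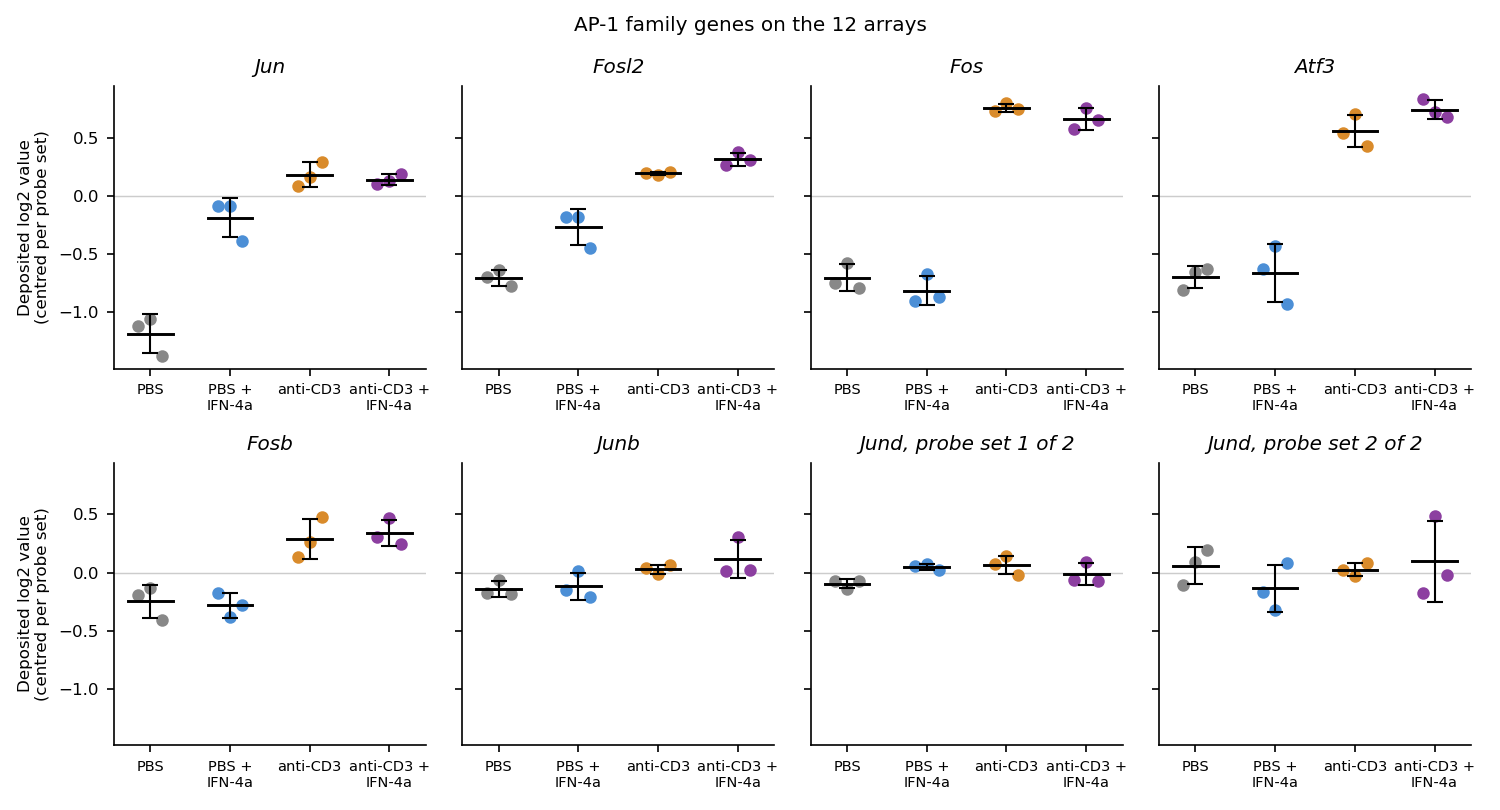
Centred log2 values (y axis) of each AP-1 probe set on the 12 arrays by group (x axis); points are arrays, long bars group means and error bars SDs (n = 3). Jun rises from a mean of -1.19 with PBS to -0.19 with IFN-4a alone, and Fos and Atf3 separate the resting from the stimulated arrays.

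Fosl2 was the other member that rose with IFN-4a in resting cells. It encodes Fra-2, a Fos family protein without the strong activation domain of c-Fos. Its values were -0.70, -0.64 and -0.78 with PBS and -0.18, -0.18 and -0.44 with PBS and IFN-4a. In stimulated cells they were 0.20, 0.18 and 0.20 without and 0.26, 0.38 and 0.31 with IFN-4a. No array of one group overlapped another group, and the groups stood in the order PBS, PBS with IFN-4a, anti-CD3, anti-CD3 with IFN-4a. In resting cells the rise was 1.35-fold (log2 0.44, SE 0.07, limma adjusted p = 0.00119), called in all 21 alternatives. In stimulated cells the difference of 0.12 was not past the threshold (95% interval -0.03 to 0.28, limma adjusted p = 0.471). The arrays did not overlap there, which also held for 21.1% of all genes. The difference between the responses was -0.31 (SE 0.10, adjusted p = 0.234), which did not pass. With the third IFN-4a array of resting cells left out it was -0.40 (adjusted p = 0.0393).

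Across the family, 2 of 7 members rose with IFN-4a in resting cells and none fell, where 4.25% of all genes tested rose, 8.37% fell and 12.6% were called in all. Arrays of the 2 groups did not overlap for 2 of 7 members, beside 30.8% of all genes. The median member change was 0.03, beside -0.01 over all genes. In stimulated cells none of the 7 passed limma's test, where 3.48% of all genes tested were called, 2.02% of them higher and 1.46% lower as shares of all genes, and the arrays did not overlap for 1 of 7, beside 21.1% of all genes. None had an unadjusted p under 0.05 there, and none was called in any of the alternatives. The 5 other members lay between -0.11 and 0.04 in resting cells. For the interaction, Jun was the 1 member called, lower, where 0.645% of all genes tested were lower, 0.298% higher and 0.942% called in all. These comparisons share arrays, so their counts are not independent of each other.

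**Figure D2:**
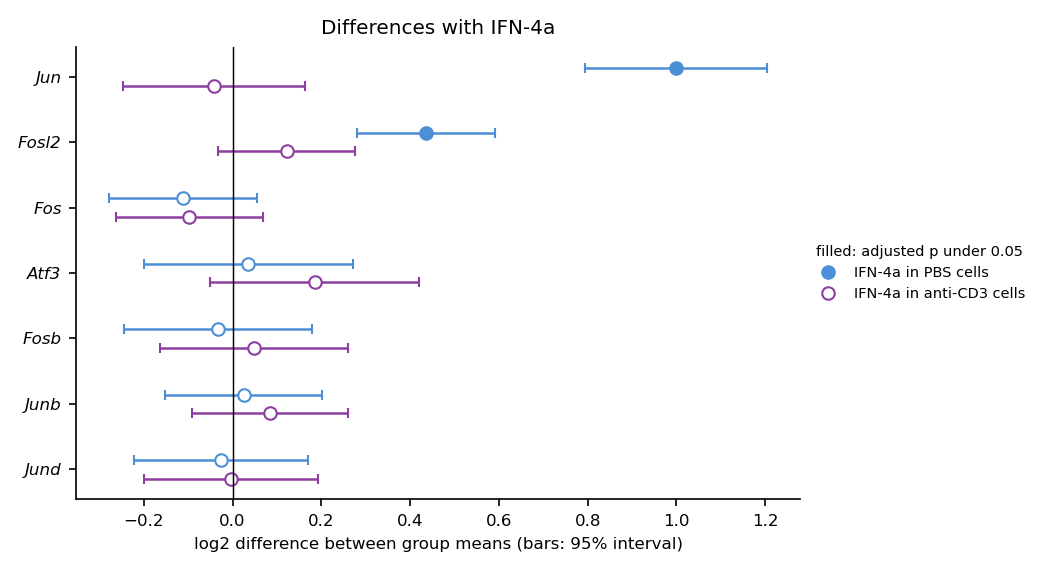
Log2 differences with IFN-4a (x axis, bars 95% intervals) for the 7 measured members (y axis) in resting cells and in stimulated cells; filled points have adjusted p under 0.05. Jun at 1.0 and Fosl2 at 0.44 are filled in resting cells, and no point is filled in stimulated cells.

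With anti-CD3 alone, Fos, Jun, Atf3, Fosl2 and Fosb rose. These 5 of 7 members compare with 13.8% of all genes tested that rose, 18% that fell and 31.8% called in all, and no member fell. The median member change was 0.90, beside -0.04 over all genes. With IFN-4a present in both groups compared, the same 5 genes rose, where 12.8% of all genes rose, 14.9% fell and 27.7% were called in all. The median was then 0.58, beside -0.04 over all genes. By arrays, 6 of 7 members did not overlap between PBS and anti-CD3, where 41.2% of all genes did not, and likewise 6 of 7 with IFN-4a present, beside 38.3% of all genes. Markers moved as well with anti-CD3 alone. Of the 6 CD8 and general T cell markers 3 fell (lowest Cd3d at -0.64), and 1 of 5 B cell markers fell (Cd79b at -0.69). Of 4 CD4 T cell markers 1 rose (Cd40lg at 1.04), as did 1 of 8 myeloid markers (Itgax at 0.56). Of 2 measured erythroid and platelet markers 1 fell (Itga2b at -0.23). Of 6 NK cell markers 2 rose, Eomes at 1.59 and Nkg7, the granule gene shared by CD8+ cells, and 1 fell, Klrk1 at -0.37. None of 5 granulocyte markers was called. Their part in the result was not tested.

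Fos, whose c-Fos protein needs a Jun partner to bind DNA, had the largest rise with anti-CD3. Its values were -0.75, -0.57 and -0.79 with PBS and -0.91, -0.67 and -0.87 with PBS and IFN-4a. In stimulated cells they were 0.73, 0.80 and 0.75 without and 0.57, 0.76 and 0.65 with IFN-4a. All 6 stimulated arrays stood above all 6 resting arrays, and the groups with and without IFN-4a overlapped in both states. The rise was 2.76-fold without IFN-4a (log2 1.46, SE 0.08, limma adjusted p = 4.06e-09) and 2.79-fold with it (log2 1.48, adjusted p = 3.75e-09). With IFN-4a the differences were -0.11 in resting (95% interval -0.28 to 0.05, adjusted p = 0.389) and -0.10 in stimulated cells (interval -0.26 to 0.07, adjusted p = 0.612).

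Atf3 encodes a stress-inducible ATF protein that can pair with Jun proteins. Its values were -0.81, -0.66 and -0.62 with PBS, -0.63, -0.43 and -0.93 with PBS and IFN-4a, 0.54, 0.71 and 0.43 with anti-CD3, and 0.84, 0.72 and 0.68 with both. As for Fos, the stimulated arrays all stood above the resting ones, and the PBS with IFN-4a arrays were the most scattered (SD 0.25). The rise with anti-CD3 was 2.39-fold without IFN-4a (log2 1.26, SE 0.11, limma adjusted p = 5.91e-07) and 2.65-fold with it (log2 1.41, adjusted p = 2.15e-07). With IFN-4a it differed by 0.04 in resting (95% interval -0.20 to 0.27) and 0.19 in stimulated cells (interval -0.05 to 0.42, adjusted p = 0.470).

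Jun rose less with anti-CD3 where IFN-4a was present, which is its interaction given above seen from the other side, while for Fosl2 that difference did not pass the test. Jun rose 2.58-fold with anti-CD3 alone (log2 1.37, limma adjusted p = 6.40e-08) and 1.26-fold between the groups with IFN-4a (log2 0.33, SE 0.10, adjusted p = 0.0179). That last call ended when the third IFN-4a array of resting cells was left out (log2 0.23, adjusted p = 0.0906) and without the third array with both agents (log2 0.30, adjusted p = 0.0642). Fosl2 rose 1.87-fold with anti-CD3 alone (log2 0.90, limma adjusted p = 2.57e-07) and 1.5-fold with IFN-4a present (log2 0.58, adjusted p = 1.90e-05). Anti-CD3 alone still stood above IFN-4a alone, by 0.37 for Jun (limma adjusted p = 0.00805) and 0.46 for Fosl2 (adjusted p = 0.000150). In that comparison 5 of 7 members were higher with anti-CD3, where 14.7% of all genes tested were higher, 16.5% lower and 31.2% called in all, and 5 of 7 did not overlap, beside 43.5% of all genes.

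Fosb encodes a further Fos protein, best known as an immediate early product in neurons. Its values were -0.20, -0.14 and -0.41 with PBS, -0.17, -0.39 and -0.28 with PBS and IFN-4a, 0.14, 0.26 and 0.48 with anti-CD3, and 0.30, 0.47 and 0.25 with both. The stimulated arrays again stood above the resting arrays. The rises were 1.45-fold without IFN-4a (log2 0.54, SE 0.10, limma adjusted p = 0.000558) and 1.54-fold with it (log2 0.62, adjusted p = 0.000190), and the differences with IFN-4a were -0.03 and 0.05.

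**Figure D3:**
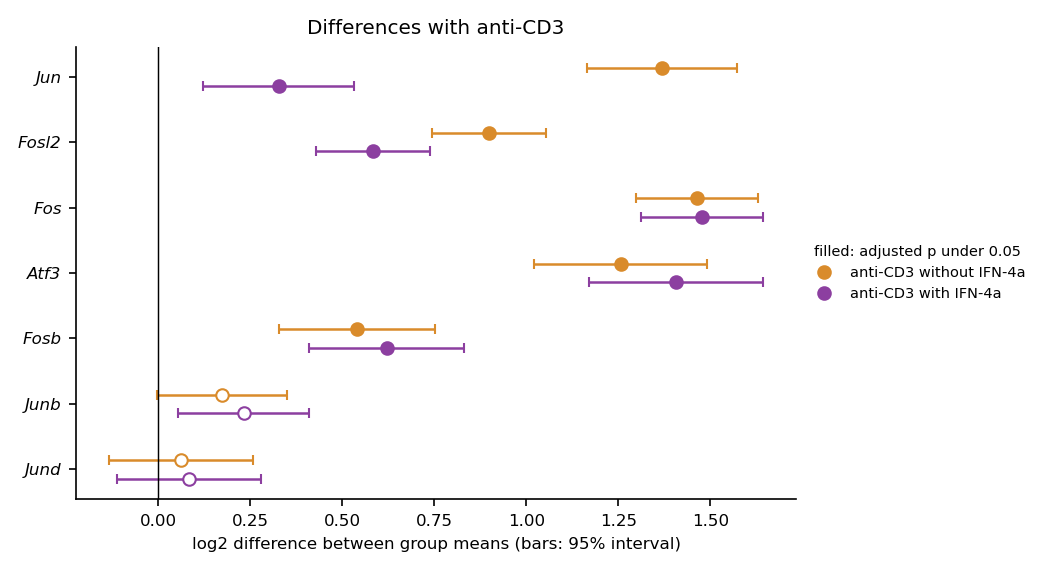
Log2 differences with anti-CD3 (x axis, bars 95% intervals) for the 7 measured members (y axis), without and with IFN-4a in both groups compared; filled points have adjusted p under 0.05. Jun falls from 1.37 without to 0.33 with IFN-4a, while Fos stays at 1.46 and 1.48.

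The smallest differences were those of the other Jun genes. JunB is a Jun protein that can pair with BATF in activated T cells. Junb values were -0.18, -0.06 and -0.19 with PBS, -0.15, 0.01 and -0.22 with PBS and IFN-4a, 0.04, -0.01 and 0.06 with anti-CD3, and 0.02, 0.30 and 0.02 with both. The second array with both agents was the highest and the others of that group lay near 0. Anti-CD3 differed from PBS by 0.17 (95% interval -0.00 to 0.35, limma adjusted p = 0.139), and with IFN-4a in both groups by 0.23 (adjusted p = 0.0504). That second value passed the threshold in 7 of 21 alternatives (adjusted p from 0.0163 to 0.232). The group with both agents was 1.2-fold above PBS (log2 0.26, limma adjusted p = 0.0258), a comparison in which 6 of 7 members rose, where 14.1% of all genes rose, 19% fell and 33.1% were called in all, and 6 of 7 did not overlap, beside 42% of all genes. That Junb call ended without the second array with both agents (log2 0.16, adjusted p = 0.116), without the first PBS array (log2 0.24, adjusted p = 0.0746), without the third PBS array (log2 0.23, adjusted p = 0.0812) and with only these 2 groups in the fit (adjusted p = 0.0512).

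JunD is the Jun protein that is typically present in unstimulated cells. The mean of the 2 Jund probe sets differed between groups by at most 0.09, with adjusted p of 0.523 or more in each of the 7 comparisons. With IFN-4a in both groups, the 95% interval for anti-CD3 ran from -0.11 to 0.28. The probe sets disagreed, so their mean combines values of opposite sign. With IFN-4a in resting cells the first stood at 0.14 (limma adjusted p = 0.155 by probe set) and the other at -0.20 (adjusted p = 0.436). For anti-CD3 alone the values were 0.16 (limma adjusted p = 0.0632 by probe set) and -0.04 (adjusted p = 0.894). The second probe set was the more scattered, with values from -0.18 to 0.49 and an SD of 0.35 in the group with both agents, against 0.09 for the first.

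Genes with the smallest root mean square difference from a member over the 12 arrays were taken for the 4 members whose group means spanned at least 1. For Jun they were Pmepa1 (0.160), Irf1 (0.174), which encodes an interferon regulatory factor, and Map3k8 (0.193), which encodes a kinase above the ERK route. With IFN-4a alone their means were -0.02, -0.20 and -0.04, beside -0.19 for Jun. For Fosl2 they were Chordc1 (0.104), Rcn1 (0.109) and Nek6 (0.111). For Fos they were Nefh (0.0688), Ebna1bp2 (0.0812) and Hspa9 (0.0881), a mitochondrial chaperone gene. For Atf3 they were Cd3eap (0.136), Ranbp1 (0.138) and Lad1 (0.138). These figures describe likeness of values on the same arrays only.

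**Figure D4:**
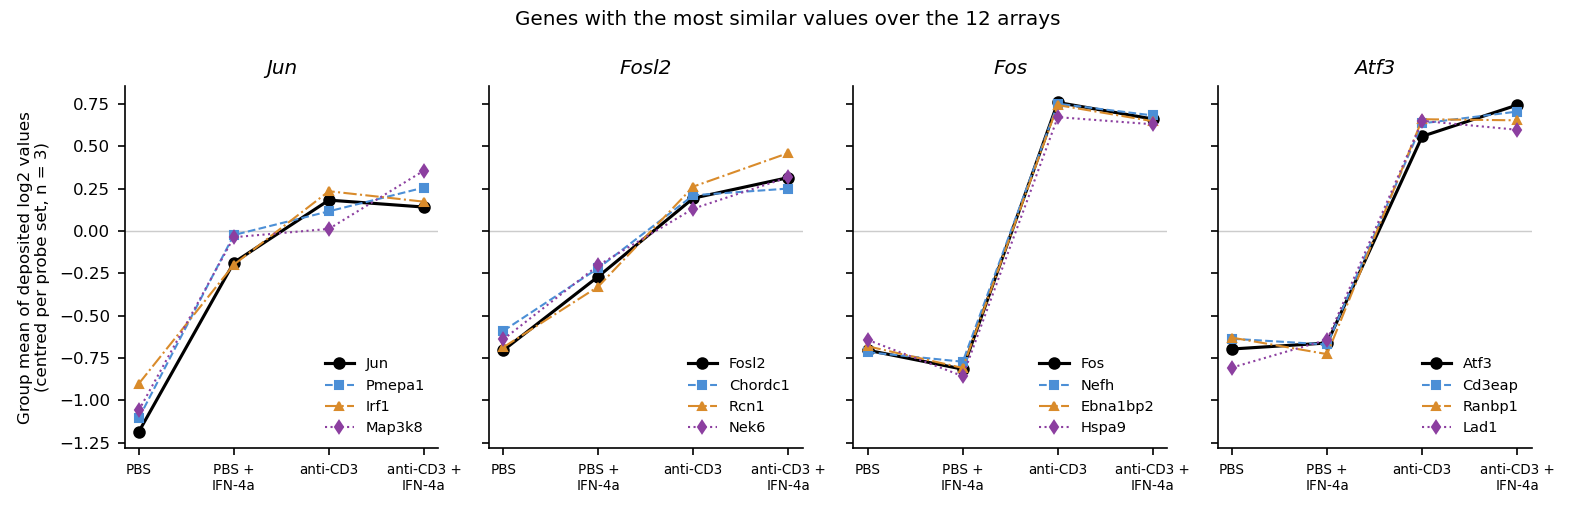
Group means of centred log2 values (y axis, n = 3) over the 4 groups (x axis) for Jun, Fosl2, Fos and Atf3 and the 3 genes nearest to each. Jun and its nearest genes step up from PBS to IFN-4a alone, whereas Fos, Atf3 and theirs step up between the resting and stimulated groups.

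Genes around AP-1 were followed in 6 lists. Of 22 other genes of the basic leucine zipper class, 8 rose and 2 fell with anti-CD3 alone (median 0.12, all genes -0.04). Over all genes tested, 13.8% rose and 18% fell in that comparison. The leading changes were Atf6 at 1.24, a sensor of endoplasmic reticulum stress, Mafk at 0.81, a small Maf partner gene, and Bach1 at 0.60, a repressor gene. Between the groups given IFN-4a, 6 rose and 2 fell, with Atf6 at 1.07, Mafk at 0.74 and Bach1 at 0.69. Of all genes, 12.8% rose and 14.9% fell there. Batf, named here after its values were seen because its product pairs with JunB, stood at -0.05 with anti-CD3 alone (95% interval -0.20 to 0.10) and 0.02 with IFN-4a in resting cells. With IFN-4a in resting cells 2 of the 22 rose, Crem by 0.34, a cyclic AMP response gene, and Mafk by 0.27. Bach1 fell by 0.27. These 3 calls lie near the share over all genes, of which 4.25% rose, 8.37% fell and 12.6% were called there. None of the 22 was called in stimulated cells, where 3.48% of all genes were. The Mafk and Bach1 calls with IFN-4a were lost in 5 and 4 alternatives. The 3 calls of this list became 1 with only the 2 groups in the fit.

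In the Ras and MAP kinase route, 2 of 18 measured genes rose and 7 fell with anti-CD3 alone (median -0.10). Over all genes, 13.8% rose and 18% fell. Map2k3, a kinase gene above p38, rose by 2.43 and Mapk8, the JNK1 gene, by 0.81, while Map3k1, a kinase gene above JNK, fell by 0.64. Between the groups given IFN-4a, 4 rose and 6 fell, with Map2k3 at 2.54, Rac2 at -0.61 and Map3k1 at -0.49. Of all genes, 12.8% rose and 14.9% fell there. With IFN-4a in resting cells 3 rose and 6 fell, where 4.25% of all genes rose and 8.37% fell. The raised genes were Mapk9 at 0.58, the JNK2 gene, Sos1 at 0.58, which encodes a Ras activator, and Map2k1 at 0.45, the MEK1 gene, and all 3 also rose in stimulated cells, Map2k1 by 0.64 and Sos1 by 0.40. There 1 of the 18 fell, Map2k6, a kinase gene above p38, by 0.48 (limma adjusted p = 0.0170), a call that ended in 4 alternatives (highest adjusted p 0.0824). Of all genes, 2.02% rose and 1.46% fell with IFN-4a in stimulated cells. The 9 calls of this list in resting cells became 5 without the third PBS array or without the first IFN-4a array of resting cells.

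Of 12 measured genes of factors that act on AP-1 gene promoters, 3 rose and 4 fell with anti-CD3 alone. Over all genes, 13.8% rose and 18% fell. Srf, the serum response factor gene, rose by 0.76 and Stat3 by 0.59, and Mrtfa, the gene of an Srf coactivator, fell by 0.69. With IFN-4a in both groups 2 rose and 4 fell, with Srf at 0.87, Mrtfa at -0.62 and Creb1 at -0.60. Of all genes, 12.8% rose and 14.9% fell there. With IFN-4a in resting cells Stat3 rose by 0.36 (limma adjusted p = 0.000723) and Elk3 fell by 0.37. Over all genes, 4.25% rose and 8.37% fell in resting cells. The Stat3 response also differed between the states (-0.44, adjusted p = 0.0144), but that call ended when the first or the second IFN-4a array of resting cells or the second anti-CD3 array was left out (highest adjusted p 0.0526). The Elk3 call ended when the third PBS array or the first or the second IFN-4a array of resting cells was left out (highest adjusted p 0.0761).

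Of 6 genes of the NFAT and IRF families, which include partners of AP-1, 4 rose and 1 fell with anti-CD3 alone (median 0.51). Over all genes, 13.8% rose and 18% fell. Irf4, whose product binds DNA with BATF and Jun, rose by 3.44, Irf8 by 2.13 and Nfatc1 by 0.68. The other gene that rose was Nfat5, from a mean of -0.32 with PBS to 0.02 with anti-CD3. With IFN-4a in both groups 3 rose and 1 fell, with Irf4 at 2.98, Irf8 at 1.88 and Nfatc3 at -0.67. Of all genes, 12.8% rose and 14.9% fell there. With IFN-4a in resting cells the 1 call was Irf8 at 0.26, which ended under quantile normalization (0.13) and in 4 other alternatives. None was called in stimulated cells. Over all genes, 12.6% were called with IFN-4a in resting and 3.48% in stimulated cells.

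Among 23 T cell genes with reported AP-1 sites, 16 rose and 2 fell with anti-CD3 alone (median 0.81), led by the chemokine genes Ccl3 at 6.91 and Ccl4 at 4.76 and by Tnfrsf9 at 4.32, the 4-1BB receptor gene. Over all genes, 13.8% rose and 18% fell with anti-CD3 alone. With IFN-4a in resting cells 5 of the 23 rose and 2 fell, where 4.25% of all genes rose and 8.37% fell. In stimulated cells 4 of the 23 rose, where 2.02% of all genes did. In resting cells the leading genes were Gzmb at 1.33, the granzyme B gene, Cd69 at 1.16 and Il2ra at 0.98. That Il2ra call was lost in 1 alternative, quantile normalization of the centred values (0.20, limma adjusted p = 0.306). In stimulated cells the leading genes were Gzmb at 2.08, Lif at 1.26 and Ifng at 1.18. In the interaction 3 of the 23 were higher and 2 lower, where 0.298% of all genes were higher and 0.645% lower. Lif stood at 1.19 and Ifng at 1.01, opposite in sign to Jun, and Il2ra at -0.97 (limma adjusted p = 0.0213), of the same sign as Jun. The other lower gene was Cd69 at -0.85 (adjusted p = 0.00507), named after its values were seen. The Il2ra call ended in 10 alternatives, among them quantile normalization (-0.40, adjusted p = 0.413). With anti-CD3 between the groups given IFN-4a, 15 rose and 1 fell, led by Ccl3 at 6.25, Ifng at 4.95 and Ccl4 at 4.37. Of all genes, 12.8% rose and 14.9% fell there.

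Of 27 other immediate early genes, 17 rose and 5 fell with anti-CD3 alone (median 0.80), led by the orphan nuclear receptor genes Nr4a2 at 4.20, Nr4a3 at 3.54 and Nr4a1 at 3.44. With IFN-4a in both groups 19 rose and 5 fell, and the same genes led at 4.11, 3.70 and 3.52. Over all genes, 13.8% rose and 18% fell with anti-CD3 alone. The shares were 12.8% and 14.9% with IFN-4a in both groups. The rises of Fos and Jun with anti-CD3 alone, at 1.46 and 1.37, were smaller than those of the Nr4a genes. They were larger than the median of this list, 0.80. With IFN-4a in resting cells 3 rose and 4 fell, with Gadd45b at 0.54, Ier3 at -0.52 and Klf2 at -0.37. Of all genes, 4.25% rose and 8.37% fell there. The 7 calls of this list became 4 without the third PBS array or the first or the second IFN-4a array of resting cells. Ier3 was the 1 call in stimulated cells, at 0.27, and its response differed between the states by 0.79 (limma adjusted p = 0.000189), again opposite in sign to that of Jun. The Ier3 call in stimulated cells ended in 5 alternatives (highest adjusted p 0.107), and that of Gadd45b in 4 (highest adjusted p 0.0737). Over all genes, 3.48% were called with IFN-4a in stimulated cells.

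**Figure D5:**
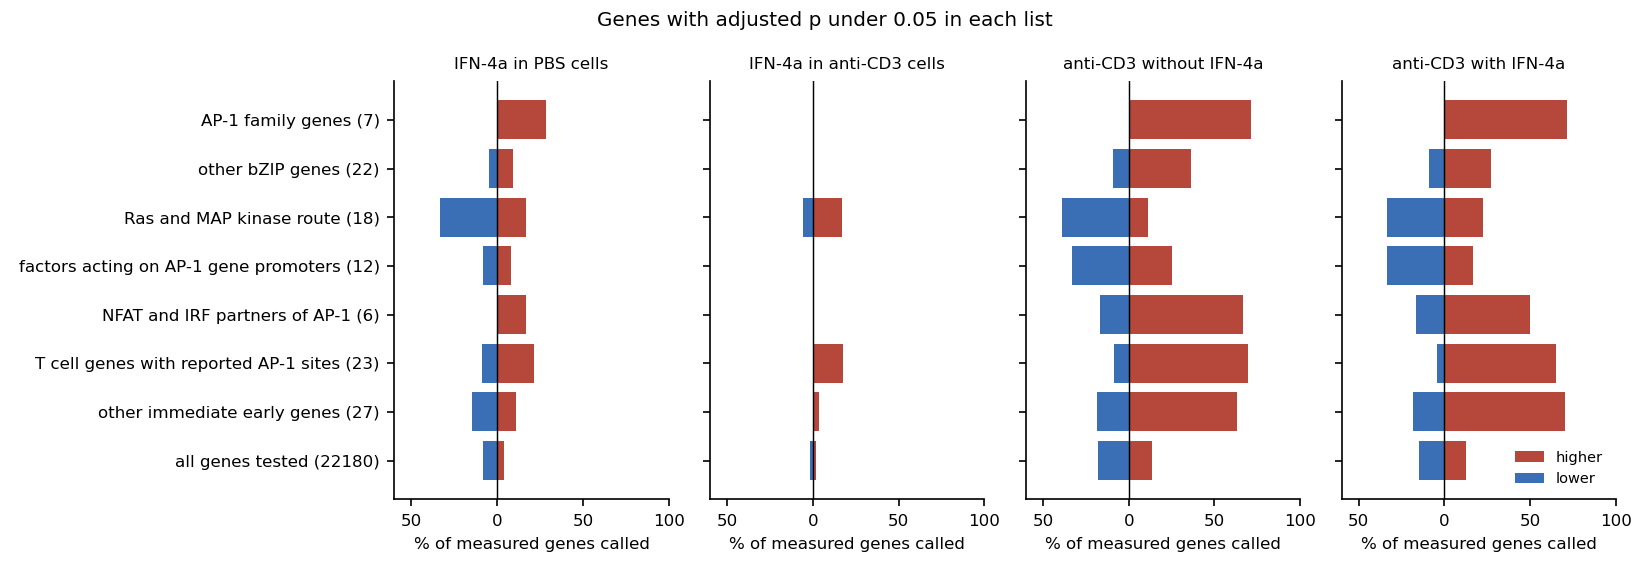
Share of measured genes called (x axis, percent; higher to the right, lower to the left) in the AP-1 family, the 6 lists and all genes tested (y axis), in 4 comparisons. With anti-CD3 alone 5 of 7 AP-1 genes were higher, where 13.8% of all genes were.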

How the data were processed

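The deposited table held log2 values of 12 arrays (scale taken as log2), which the authors had centred per probe set; not given in the sources used here are the between-array normalization and the software. Arrays give no count depth, and their number limits the precision. Groups came from the sample titles. Of 33793 probe sets, 23521 had 1 gene symbol, 1814 several and 8458 none. The probe sets of a gene were averaged, giving 22180 genes. limma 3.58.1 in R 4.3.3 fitted 4 group means over all 12 arrays (8 residual and 5.18 prior degrees of freedom). Tests were two-sided, and a call needed an adjusted p (Benjamini-Hochberg, over all genes) under 0.05 in each of 5 comparisons. A further 2 comparisons (anti-CD3 alone against IFN-4a alone, and both agents against PBS) were added after seeing the data. The method was tested on simulated data. Alternatives changed the probe set rule, the normalization, the arrays in the fit, array weights, the replicate block, the dim probe filter and the variance prior, or left out 1 array. Promoters came from RefSeq (GRCm38.p6), where all 7 measured members matched.

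The members, lists and alternatives were chosen with earlier results of these data known. Named were all members, per list and comparison the 3 called genes with the largest change, check genes (Ifit1, Isg15, Mx1, Irf7, Nr4a1, Il2ra, Cd8a and Cd3e), and the 3 genes nearest to each member that spanned at least 1. Among listed genes, 2 other basic leucine zipper, 6 MAP kinase route and 1 promoter factor gene (Atf1) are not analysed here; Mrtfa was listed under both of its symbols. Creb1 and Atf2 stood in 2 lists.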

Additional observations from a re-analysis of the deposited data

Results flagged for a closer look

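The response of Jun to IFN-4a differed between the states, by a test of the difference itself: the stimulated response minus the resting response was -1.04 (SE 0.13, limma adjusted p = 0.00112), from a rise of 1.0 in resting cells, seen on 3 of 3 arrays, and a difference of -0.04 in stimulated cells.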

How the results depend on the processing

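The number of members called stayed within 1.5 times its main value in each comparison and alternative, except for the interaction without single arrays, where it ranged from 1 to 2 (2 with the third IFN-4a array of resting cells left out). With the replicate number as a block, 6 members were called for anti-CD3 with IFN-4a, in place of 5, by the gain of Junb (adjusted p = 0.0271), and no other member's call changed. Of 18 same-numbered pairs of arrays, 6 correlated above 0.1 in their deviations from the group means; pairing was to be taken only if all did, so the fit without the block was kept. That 9 of 12 arrays correlated best with their own number is a hint from the data towards pairing. Of the members' values under all alternatives, 999 stayed on their side of the threshold and kept their sign or moved by less than 1 SE, 6 lost and 8 gained a call. A further 9 values, none of them called, changed sign by more. Without single arrays these were Atf3 with IFN-4a in resting cells (range -0.080 to 0.168), Junb with IFN-4a in stimulated cells (-0.0104 to 0.13), and Jund with both agents against IFN-4a (-0.0401 to 0.166) and against PBS (-0.0661 to 0.14). By single probe set they were Jund with IFN-4a in resting cells (0.14), with both agents against IFN-4a (-0.0638), with anti-CD3 alone (-0.0371, also with the highest mean probe set) and in the interaction (-0.225). Quantile normalization was applied to values already centred per probe set. Among the check genes it turned Ifit1 (-0.21), Irf7 (-0.10) and Isg15 (-0.37) with anti-CD3 alone. It also turned Isg15 with both agents against IFN-4a (-0.0377) and in the interaction (0.33), and Mx1 in the interaction (0.66). Il2ra (-0.20) and Nr4a1 (-0.21) with IFN-4a in stimulated cells turned as well. Without single arrays Nr4a1 in resting cells ranged from -0.20 to 0.0445. The cause was not tested. Over all genes, calls with IFN-4a in resting cells went from 2798 to 1753 without its second IFN-4a array, those in stimulated cells from 771 to 1402 with array weights and to 489 and 498 without single arrays, and those of the interaction from 209 to 123 (quantile), 381 (bright genes) and 137 (without the second IFN-4a array of resting cells). With bright genes alone, 6673 of the 22180 genes were tested. The 18 calls among genes with AP-1 sites with anti-CD3 alone became 5 there, where list genes outside the bright set were not counted. How many of the list genes remained is not given here. Centred values hold no background level.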
